A study of Danio rerio with 20 samples.

Results

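The comparison described here is the difference between 2 responses of zebrafish oligodendrocyte precursor cells (OPCs), the response to 4-aminopyridine (4AP) minus the response to demyelination. All 20 of the 20 libraries in the series entered it, and the groups were taken from the sample titles. RNA of sorted OPCs was sequenced from the 3' end after 16 h in 4 groups of 5 libraries: OPCs of fish given 4AP, OPCs of the 4AP control, OPCs after demyelination brought about by capsaicin acting on the channel TRPV1, and OPCs of the demyelination control. The 4AP effect (4AP over 4AP control) and the demyelination effect (demyelination over demyelination control) share no library, and a positive difference means that the 4AP effect was the more positive of both. The age and number of fish, the marker used for sorting, the cells that carry TRPV1 and what each control received are not given in the sources used here. Nothing in the labels says that libraries of a group came from separate fish, so p-values measure only the spread between these libraries, which may be technical.

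OPCs divide throughout life and give rise to oligodendrocytes, the cells that wrap axons in myelin. 4AP blocks voltage-gated potassium channels and prolongs action potentials, so it is used to raise neuronal activity, and active axons are known to change how OPCs divide and differentiate. After loss of myelin, OPCs are recruited to bare axons and differentiate into oligodendrocytes that remyelinate them. The comparison asks in which genes an adaptive response to activity and a regenerative response to myelin loss differ.

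Libraries held 356494 to 1744483 reads in genes for 4AP, 163158 to 897620 for the 4AP control, 38314 to 3528970 for demyelination and 1180 to 282966 for the demyelination control. The lowest value is that of demyelination control 1, which detected 592 genes. After normalisation 1 read in it equalled 196 normalised CPM, reads scaled by an adjusted library size, so most of its zeros are below what it could detect. The factor that adjusted its library size (TMM) was 4.96, against 0.70 to 1.11 in all other libraries, which lowers its normalised values. The most reads were held by demyelination 5. The other 4 demyelination libraries held at most 83149 reads, so many genes there rest on fewer than 10 reads. The names of the deposited tables carry prefixes whose meaning is not given in the sources used here. 4AP controls 1 to 4 share a prefix, 4AP control 5 shares another with all 5 4AP libraries, and all demyelination and demyelination control libraries share the remaining prefix. Over genes, log2 CPM of 4AP control 5 correlated with the mean of the 4AP libraries at a Pearson r of 0.954 and with the mean of 4AP controls 1 to 4 at 0.758, which describes libraries and carries no test. The label OPC was set against 8 OPC markers: their summed level was 459 to 670 CPM of the library total in 4AP, 222 to 460 in the 4AP control, 147 to 456 in demyelination, and 0 in demyelination control 1 with 380 to 498 in the other 4 demyelination controls. No OPC marker was at 0 in all libraries of a group. Markers of the exocrine pancreas summed to 6279 CPM or more in each of the 20 libraries, above the OPC markers in every library.

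Of 3981 genes tested, 66 (1.66%) had effects that differed at an adjusted p under 0.05 (edgeR's quasi-likelihood test with Benjamini-Hochberg adjustment) and are referred to as called. The difference was positive in 14 (0.352%) and negative in 52 (1.31%). Scaled by library totals instead of TMM factors, which centre most genes, it was positive in 60 and negative in 10, with a median difference of all genes of 0.52 against 0.03, and with DESeq2 size factors positive in 4 and negative in 55. At an unadjusted p under 0.05 there were 652 genes (16.4%). In all 14 genes with a positive difference the 4AP effect was above 0 and the demyelination effect below 0. Of the 52 with a negative difference, 46 had a 4AP effect below 0 and a demyelination effect above 0 (1.16%). Effects of opposite sign were therefore seen in 60 of the 66 called genes, against 1675 of all 3981 tested (42.1%), though a large difference of effects itself favours opposite signs. Taken alone, the 4AP effect called 242 genes higher (6.08%) and 456 lower (11.5%), a split that turned with the scaling. It was 845 higher and 232 lower under scaling to library totals, 483 and 343 with DESeq2 size factors, and 467 and 359 by the DESeq2 Wald test. The median 4AP effect of all genes was 0.16 with TMM, 0.57 with library totals and 0.37 with DESeq2 size factors, so effects on lists are read against it. The demyelination effect called 0 genes by edgeR, with 327 (8.21%) at an unadjusted p under 0.05. Opposite signs with an unadjusted p under 0.05 in both effects occurred in 32 genes (0.804%) and like signs in 73 genes (1.83%). Over the 3981 genes the effects correlated at a Pearson r of 0.117, a description across genes that are not independent. The median difference of all genes was 0.03 on the log2 scale, and the median standard error (SE) of a difference was 0.68.

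The called genes are described by the size of each effect in them. The 14 genes with a positive difference had a median log2 4AP effect of 1.20 and a median demyelination effect of -1.40. In the demyelination effect 12 of them reached an unadjusted p under 0.05, against 327 of all 3981 genes tested (8.21%). Of these 14, 6 were called in the 4AP effect, against 698 of all 3981. None of them was called in the demyelination effect, in which 0 genes were called over the whole table. The 52 genes with a negative difference had a median 4AP effect of -2.39 and a median demyelination effect of 0.57. Of these 52, 51 were called in the 4AP effect, against 698 of all 3981. In the demyelination effect 5 of the 52 had an unadjusted p under 0.05, a share near the 8.21% of all genes. The same difference can be read as the gap between the treated groups minus the gap between the controls. In the 52 genes the median log2 gap was -0.79 between 4AP and demyelination libraries and 1.96 between 4AP control and demyelination control libraries, and the gap between controls was the larger in 41 of 52 genes (78.8%), against 2363 of all 3981 (59.4%). In the 14 genes these medians were 1.44 between treated and -1.27 between control libraries, and the gap between controls was the larger in 8 of 14 (57.1%). Both effects, and likewise both gaps, enter the difference by which these genes were called. Large effects, low p-values in them and large gaps are therefore favoured by that choice.

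**Figure D1:**
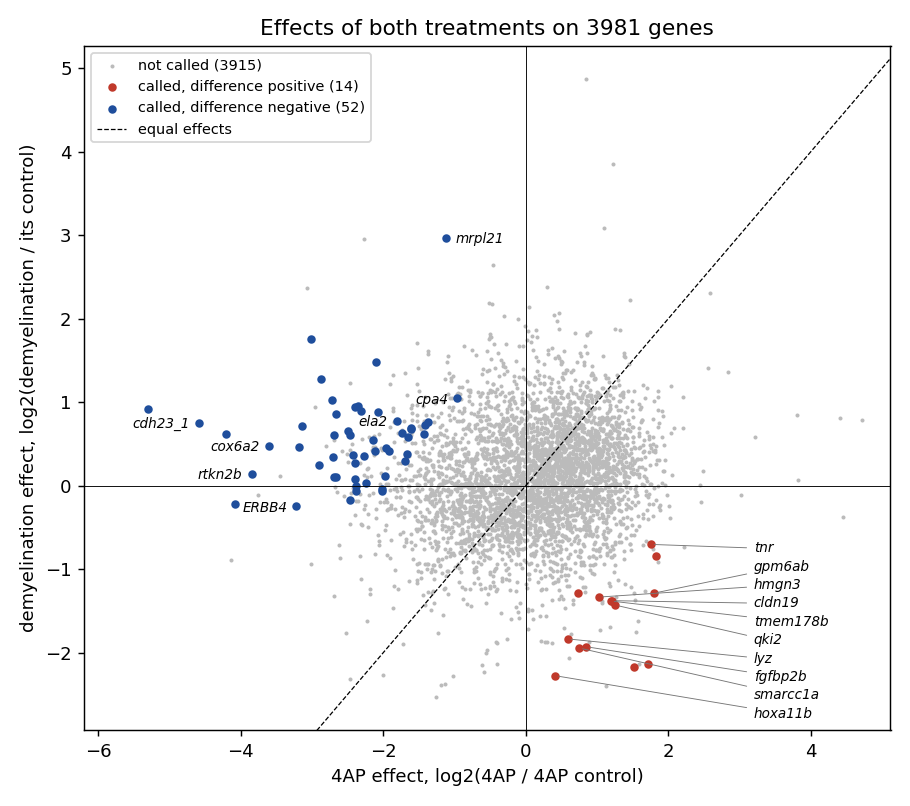
Log2 4AP effect (horizontal) against log2 demyelination effect (vertical) for the 3981 genes tested, each point a gene. The 14 called genes with a positive difference (red) all lie at the lower right, and the 52 with a negative difference (blue) lie at the left, mostly above 0 on the vertical axis. The dashed line marks equal effects.

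The number of calls depended on single libraries. Leaving out 1 library at a time gave 22, 15, 27, 28 and 24 calls without 4AP 1 to 5, and 9, 7, 11, 20 and 738 without 4AP control 1 to 5. It gave 30, 54, 145, 99 and 13 calls without demyelination 1 to 5, and 37, 3, 14, 27 and 13 without demyelination control 1 to 5. Only the fits without demyelination 2 and without demyelination 4 stayed within 1.5 times of 66. Of the genes named below, hmgn3, hoxa11b, ubtd2, atp5po, cox6a2, gstp1, aclya, cfl1l and ctsa were called in 3 of the 20 fits. Adjusted p-values of the 14 genes with a positive difference lay between 0.0304 and 0.0435, close to the threshold of 0.05.

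Genes of myelin and of oligodendrocyte differentiation were higher with 4AP and lower after demyelination in their medians. Of 23 such genes in the tables, 15 passed the filter on low counts, with a median log2 4AP effect of 0.67 and a median demyelination effect of -0.79, against 0.16 and 0.09 over all genes tested. The difference was positive in 13 of the 15 (50.9% of all genes), it had an unadjusted p under 0.05 in 9, and 10 had a positive 4AP effect with a negative demyelination effect. Of the 15, 4 rose in the 4AP effect (6.08% of all genes) and none was called in the demyelination effect. The called member was cldn19, a claudin of tight junctions. cldn19 had 193, 118, 123, 134 and 94.3 normalised CPM in the 4AP libraries, against 9.70, 35.8, 27.03, 131 and 82.7 in 4AP controls 1 to 5. Demyelination libraries 1 to 5 had 30.4, 29.8, 31.9, 50.6 and 34.6, against 0, 106, 74.8, 113 and 87.96 in demyelination controls 1 to 5. All 5 demyelination libraries lay below demyelination controls 2 to 5, with 1 to 3 reads each in demyelination 1 to 4, and among the 4AP controls only 4AP control 4 reached the 4AP range. Its 4AP effect was 1.22 ± 0.40 (SE, n = 5 against 5) and its demyelination effect -1.38 ± 0.54, a difference of 2.59 ± 0.67 (adjusted p = 0.0428), called in 5 of 20 fits that left out 1 library.

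Of the further myelin genes named here, most had a positive 4AP effect with a negative demyelination effect, and none was called. mbpa had 241, 269, 155, 139.6 and 157 normalised CPM in the 4AP libraries, against 58.2, 97.3, 122, 175 and 157 in 4AP controls 1 to 5. mbpa encodes myelin basic protein, which compacts myelin. Its values were 91.3, 89.5, 207, 388 and 85.9 in demyelination 1 to 5, against 0, 516, 804, 271 and 313 in demyelination controls 1 to 5. 4AP controls 4 and 5 lay within the 4AP range, and demyelination 4 alone reached the range of demyelination controls 2 to 5. The difference of effects of mbpa was 2.03 ± 0.64 (unadjusted p = 0.00318, adjusted p = 0.0907). The paralogue mbpb had a difference of 2.10 (4AP effect 0.83, demyelination effect -1.28), and mpz, which encodes the adhesion protein myelin protein zero, had 2.08 (0.67 and -1.41). The values of ugt8, the enzyme that makes galactocerebroside for myelin, were 1.88 (1.48 and -0.40), and those of nfasca, a neurofascin of the node and its flanks, 1.98 (1.64 and -0.33). The lineage marker plp1a had 1.82 ± 0.88 (adjusted p = 0.292), with effects of 0.47 and -1.35, and was called in 0 of 18 fits that left out 1 library. The difference of cnp was negative at -0.85.

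The M6 membrane glycoproteins held the called gene gpm6ab. gpm6ab had 377, 426, 316, 461 and 377 normalised CPM in the 4AP libraries, against 24.3, 25.6, 54.1, 61.1 and 352 in 4AP controls 1 to 5. gpm6ab (ENSDARG00000004621, chromosome 1, 38649141 to 38756904) encodes a neuronal and glial M6A glycoprotein. In demyelination libraries 1 to 5 it had 60.9, 328, 79.7, 287 and 123, against 0, 449.7, 477, 553 and 308 in demyelination controls 1 to 5. 4AP controls 1 to 4 lay below every 4AP library, 4AP control 5 lay within the 4AP range, and the demyelination libraries overlapped their controls. The 4AP effect was 1.80 ± 0.54 (adjusted p = 0.0236), the demyelination effect -1.29 ± 0.60 (unadjusted p = 0.0396) and the difference 3.08 ± 0.80 (adjusted p = 0.0429), called in 4 of 20 fits. Without 4AP control 5 the difference was 4.60. gpm6aa had 2.03 (unadjusted p = 0.00264) and gpm6bb -0.10.

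Genes of OPC identity followed a like order with fewer low p-values for the founding transcription factors. The difference was positive in 13 of 15 tested members of 30, with medians of 0.25 for the 4AP effect and -0.58 for the demyelination effect, and 7 members were positive in the first and negative in the second effect. All 30 genes together held 0.149 to 0.171% of reads in 4AP, against 0.0792 to 0.124% in the 4AP control. They held 0.414, 0.499, 0.0962, 0.289 and 0.0949% in demyelination 1 to 5, against 0.169 to 0.249% in the demyelination control. The summed share was thus above every control in demyelination 1, 2 and 4 and below every control in demyelination 3 and 5, so in 3 of 5 libraries it ran against the sign of the members' median. olig2, a lineage-determining factor, had 101, 100.3, 96.3, 144 and 136 normalised CPM in 4AP, against 82.5, 118, 196, 227 and 97.5 in the 4AP control. It had 30.4, 0, 112, 67.4 and 13.8 in demyelination, against 0, 101, 122, 147 and 165 in the demyelination control. The 4AP libraries overlapped their controls, and demyelination 1, 2, 4 and 5 lay below demyelination controls 2 to 5. Its 4AP effect was -0.27 ± 0.39, its demyelination effect -1.83 ± 0.57 (unadjusted p = 0.00306) and its difference 1.56 ± 0.70 (adjusted p = 0.247). sox10, a factor of the whole lineage, had a difference of 2.77 ± 0.91 (adjusted p = 0.106), with 28.5, 63.1, 38.9, 62.7 and 55.4 normalised CPM in 4AP, against 0, 10.2, 6.76, 26.2 and 57.6 in the 4AP control. In demyelination it had 0, 29.8, 47.8, 16.9 and 14.1, against 0, 110.2, 37.4, 22.6 and 65.97 in the demyelination control. In demyelination 1 to 4, 1 read equalled 30.4, 29.8, 15.9 and 16.9 normalised CPM, so olig2 and sox10 rested on few reads there. pdgfra, the receptor for the OPC mitogen PDGF, had 0.56 ± 0.68 (adjusted p = 0.754), with effects of the same sign. GPR17 and id2b, which mark or hold differentiating OPCs, had negative differences of -3.18 and -1.79. The OPC marker sum was taken with the lower-case symbol gpr17.

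The called gene among those of OPC identity was also a gene of the extracellular matrix. tnr had 105, 80.7, 52.4, 156 and 199 normalised CPM in the 4AP libraries, against 14.6, 35.8, 33.8, 17.5 and 57.6 in 4AP controls 1 to 5. tnr (ENSDARG00000020771, chromosome 2, 35240485 to 35474115) encodes tenascin-R, a matrix protein of perineuronal nets and nodes made by oligodendrocyte lineage cells. Demyelination libraries 1 to 5 had 0, 59.7, 63.7, 152 and 94.8, against 0, 141, 149.6, 180.4 and 98.96 in demyelination controls 1 to 5. All 4AP libraries but 4AP 3 lay above all 5 4AP controls, and demyelination libraries overlapped their controls. The 4AP effect was 1.76 ± 0.44 (adjusted p = 0.00732), the demyelination effect -0.70 ± 0.49 and the difference 2.46 ± 0.66 (adjusted p = 0.0435), called in 4 of 20 fits. Of its reads, 82.1% in 4AP and 73.2% in the 4AP control lay in introns. Of 9 tested proteoglycans and tenascins, 8 had a positive difference, with medians of 0.83 for the 4AP effect and -0.50 for the demyelination effect. With the table-name prefix as a term the 4AP median of these 9 was 0.07. Their median difference was then 0.62, against 1.26 without that term. cspg5a (neuroglycan C) had 2.90, cspg4 (the NG2 proteoglycan) 1.91 ± 0.67 with an adjusted p of 0.128, and bcan (brevican) 1.97. The receptor rtn4r, which binds Nogo, had 2.66 ± 0.82 (adjusted p = 0.0825). Of all reads of rtn4r 91.1% were intronic, and of those of cspg4 95.9%. All 5 tested Nogo receptor and reticulon genes had a positive difference, 1 of them at an unadjusted p under 0.05. Their median difference was 0.98, and 0.37 with the table-name prefix as a term.

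Summed markers of neurons moved with these groups, and a longer neuron list did so only in part. The 7 neuron markers summed to 353 to 580 CPM in 4AP, against 24.7 to 202 in 4AP controls 1 to 4 and 504 in 4AP control 5. They summed to 49.03 to 265 in demyelination, against 246 to 403 in demyelination controls 2 to 5. All 34 genes of the neuron list held 0.0704 to 0.113% of reads in 4AP, against 0.0334 to 0.0601% in 4AP controls 1 to 4 and 0.0989% in 4AP control 5. That list held 0.125, 0.133, 0.0555, 0.0890 and 0.0592% in demyelination 1 to 5, against 0.0794 to 0.116% in demyelination controls 2 to 5. The median difference of its 6 tested members was 1.35, and 0.18 with the table-name prefix as a term. The part of neuron transcripts in the differences above was not tested. In such bulk samples fewer cells of a type and less RNA per cell cannot be told apart.

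The called RNA-binding gene with opposite effects was qki2, a paralogue of the quaking family of splicing regulators known from myelinating cells. qki2 had 349, 306, 235, 346 and 336 normalised CPM in the 4AP libraries, against 92.2, 71.7, 87.9, 131 and 254 in 4AP controls 1 to 5. Its values were 91.3, 119, 47.8, 287 and 94.8 in demyelination 1 to 5, against 0, 410.0, 355, 282 and 390.3 in demyelination controls 1 to 5. Its 4AP values lay above those of 4AP controls 1 to 4 and on both sides of 4AP control 5, and all demyelination libraries but demyelination 4 lay below demyelination controls 2 to 5. The 4AP effect was 1.26 ± 0.39 (adjusted p = 0.0269), the demyelination effect -1.43 ± 0.45 (unadjusted p = 0.0033) and the difference 2.69 ± 0.60 (adjusted p = 0.0304). The call held in 13 of 20 fits that left out 1 library. The paralogue qkib had 1.78 (unadjusted p = 0.00188). qki2 lies on chromosome 12 from 34953038 to 35019519 in the deposited tables, for which the submitters' processing notes list build GRCz11.

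tmem178b and hmgn3 were also called with effects of opposite sign. tmem178b had 152, 185, 247, 415 and 378 normalised CPM in the 4AP libraries, against 102, 46.1, 101, 69.8 and 258 in 4AP controls 1 to 5. It encodes a transmembrane protein. In demyelination libraries 1 to 5 it had 122, 149, 159, 371 and 98.6, against 0, 599.6, 393, 485 and 500.3 in demyelination controls 1 to 5. All demyelination libraries lay below demyelination controls 2 to 5, and the 4AP libraries overlapped 4AP control 5 and no other control. Its 4AP effect was 1.19 ± 0.43, its demyelination effect -1.38 ± 0.48 and the difference 2.57 ± 0.65 (adjusted p = 0.0428). hmgn3 had 222, 266, 215, 220.3 and 153 normalised CPM in the 4AP libraries, against 14.6, 184, 54.1, 87.3 and 168 in 4AP controls 1 to 5. hmgn3 encodes a nucleosome-binding protein. Demyelination libraries 1 to 5 had 30.4, 59.7, 79.7, 84.3 and 68.1, against 196, 145, 224, 192 and 126 in demyelination controls 1 to 5. Here all 5 demyelination libraries lay below all 5 controls, demyelination control 1 included, although its value is 1 read, while 4AP controls 2 and 5 lay within the 4AP range. The 4AP effect of hmgn3 was 1.03 ± 0.39, its demyelination effect -1.33 ± 0.49 and the difference 2.36 ± 0.63 (adjusted p = 0.0429). Over all genes tested, demyelination and its control did not overlap in 25 (0.628%), and in 112 (2.81%) without demyelination control 1. Among the 14 genes with a positive difference these counts were 1 and 8. 4AP and its control did not overlap in 372 genes (9.34%), among them 2 of these 14 and 11 of the 52 with a negative difference. Both sets were chosen by the difference of effects in these same libraries, which itself favours groups that lie apart.

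Of the 14 genes with a positive difference, 3 had the larger effect with 4AP. In smarcc1a, fgfbp2b, hoxa11b and lyz, as in qki2, tmem178b, cldn19 and hmgn3, the demyelination effect was the larger in size. smarcc1a, a subunit of the SWI/SNF (BAF) chromatin remodeller, averaged 128 ± 26.9 normalised CPM in 4AP and 68.8 ± 62.4 in the 4AP control (SD, n = 5 each). It had 60.9, 0, 15.9, 33.7 and 56.5 in demyelination, against 0, 154, 149.6, 135 and 225 in the demyelination control. In demyelination 1 to 4, 1 read equalled 30.4, 29.8, 15.9 and 16.9 normalised CPM, so smarcc1a rested on few reads there. All demyelination libraries lay below demyelination controls 2 to 5. For smarcc1a the 4AP effect was 0.75 ± 0.42, the demyelination effect -1.94 ± 0.54 (unadjusted p = 0.00109) and the difference 2.69 ± 0.69 (adjusted p = 0.0428). No other of the 51 tested chromatin genes was called, and their median difference was 0.24. fgfbp2b, a secreted protein that binds fibroblast growth factors, had 30.4, 0, 0, 33.7 and 23.4 normalised CPM in demyelination, against 0, 88.2, 37.4, 45.1 and 137 in the demyelination control. Demyelination 1 to 4 held 0 to 2 reads of it, and all 5 lay below demyelination controls 2 to 5. Its 4AP effect was 0.85 ± 0.38, its demyelination effect -1.93 ± 0.55 (unadjusted p = 0.00147) and its difference 2.78 ± 0.67 (adjusted p = 0.0388).

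lyz, a lysozyme of neutrophils and macrophages, was the called member of the leukocyte list. lyz had 542, 374, 343, 649 and 424 normalised CPM in the 4AP libraries, against 165, 261, 203, 602 and 329 in 4AP controls 1 to 5. Its values were 60.9, 29.8, 31.9, 152 and 96.7 in demyelination 1 to 5, against 0, 220.4, 533, 147 and 335 in demyelination controls 1 to 5. Both pairs of groups overlapped, the demyelination pair at demyelination 4 and demyelination control 4 and 1. The difference was 2.43 ± 0.63 (adjusted p = 0.0428), with a 4AP effect of 0.59 ± 0.40 and a demyelination effect of -1.83 ± 0.49. The other 5 tested leukocyte genes were not called and had both signs: mpx (myeloperoxidase of neutrophils) had 1.35, aif1l 1.103, apoeb -1.22, mmp9 -1.41 and lcp1 -1.80. Over the 9 leukocyte markers the summed level was 488 to 620 CPM in 4AP, against 550 to 1488 in the 4AP control, and 321 to 789 in demyelination, against 622 to 847 in the demyelination control. hoxa11b, a posterior Hox gene, had 0, 0, 31.9, 33.7 and 6.32 normalised CPM in demyelination, against 0, 35.3, 46.7, 56.4 and 65.97 in the demyelination control. hoxa11b rested on few reads there, with 1 read at 15.9 normalised CPM in demyelination 3 and 16.9 in demyelination 4. Its 4AP effect was 0.41 ± 0.36, its demyelination effect -2.27 ± 0.62 and the difference 2.69 ± 0.71 (adjusted p = 0.0432). ubtd2, a ubiquitin domain protein, had a difference of 2.68 ± 0.71 (adjusted p = 0.0428). Without demyelination 5 the difference of hoxa11b was 1.57, and without 4AP control 5 that of ubtd2 was 4.21.

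**Figure D2:**
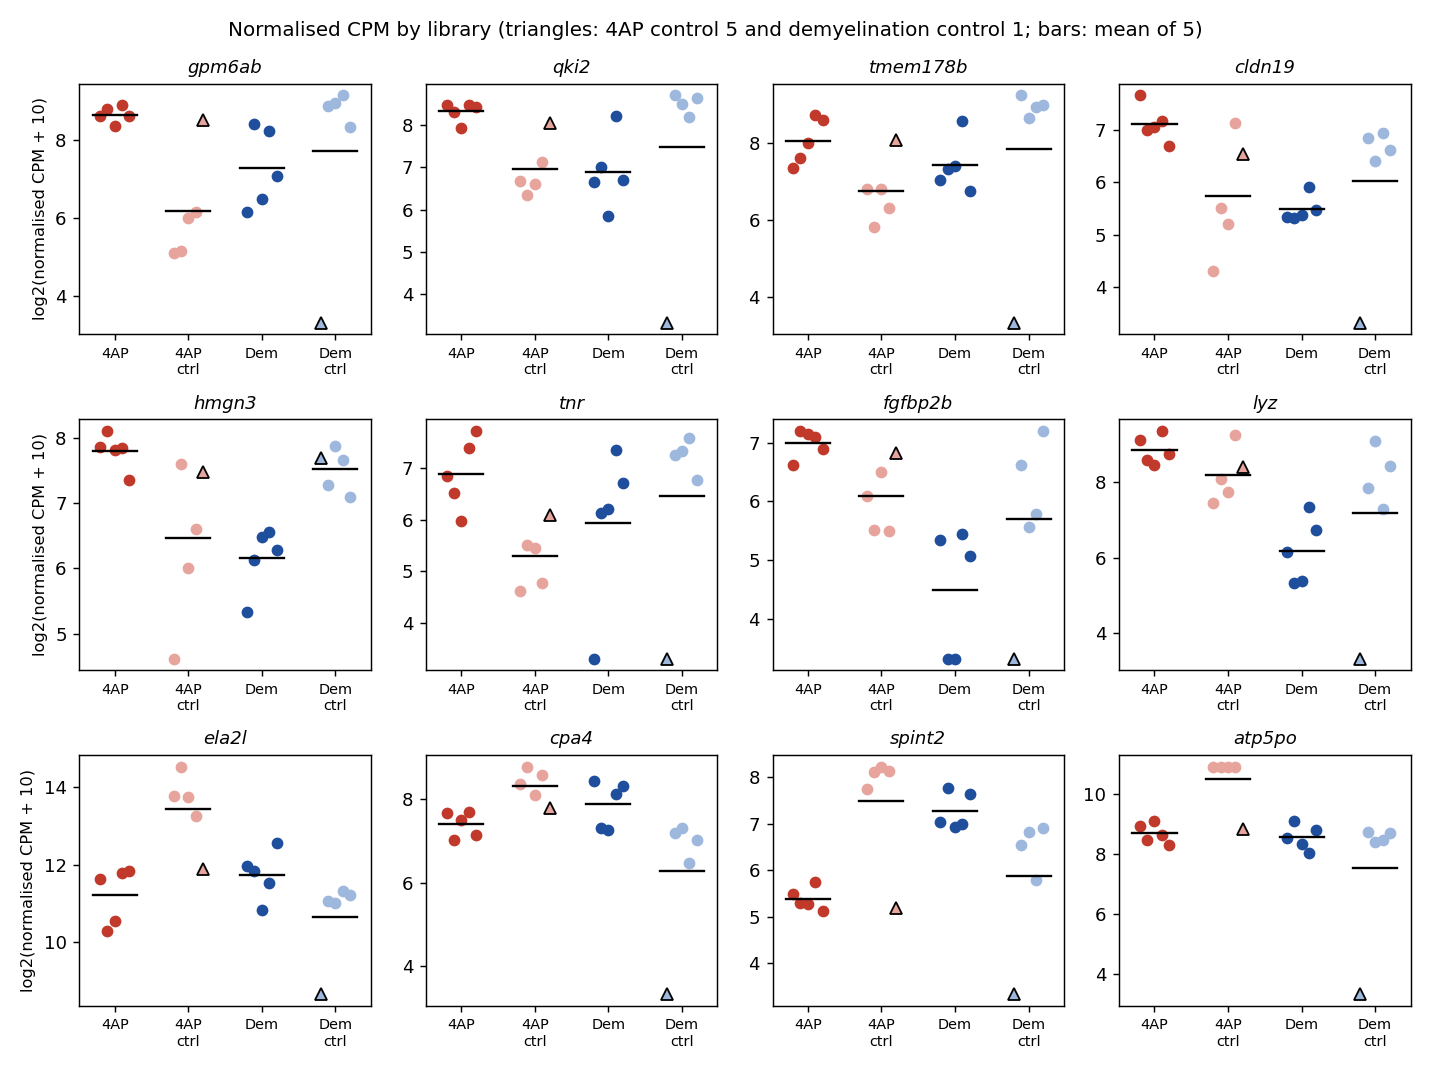
Normalised CPM of 12 genes in each library, drawn as log2(CPM + 10) (Dem, demyelination; ctrl, control), with 4AP left of its control and demyelination left of its control. Triangles are 4AP control 5 and demyelination control 1, and bars are means of the 5 plotted values. gpm6ab, qki2 and tmem178b have 4AP control 5 near the 4AP libraries, and ela2l and cpa4 are lower in 4AP than in its control and higher in most demyelination libraries than in demyelination controls.

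Genes of the exocrine pancreas gave the most uniform pattern with the opposite sign. Of 25 such genes in the tables, 18 passed the filter, all 18 had a negative difference, and 17 had a negative 4AP effect with a positive demyelination effect. Their median log2 4AP effect was -1.21 and their median demyelination effect 0.76, and 6 were called in the difference (background for negative calls 1.31%). ela2l had 3149, 1243, 1489.9, 3538 and 3658 normalised CPM in the 4AP libraries, against 13982, 23659, 13754, 9859.5 and 3811 in 4AP controls 1 to 5. ela2l (ENSDARG00000056765, chromosome 8, 21366771 to 21372485) encodes an elastase-like digestive protease. In demyelination libraries 1 to 5 it had 4017, 3640.0, 1800.4, 2949.9 and 5978, against 391, 2107, 2057, 2526 and 2364 in demyelination controls 1 to 5. Every 4AP library lay below every 4AP control, and demyelination 1, 2, 4 and 5 lay above all demyelination controls. The 4AP effect was -2.31 ± 0.46 (adjusted p = 0.00108), the demyelination effect 0.89 ± 0.45 (unadjusted p = 0.0567) and the difference -3.21 ± 0.65 (adjusted p = 0.0139), called in 19 of 20 fits.

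cpa4, a carboxypeptidase, had the pattern with the most even effects. cpa4 had 193, 121, 172, 198 and 132 normalised CPM in the 4AP libraries, against 320.2, 430.0, 264, 375 and 213 in 4AP controls 1 to 5. Demyelination libraries 1 to 5 had 335, 149, 143, 269.7 and 309, against 0, 137, 149.6, 78.9 and 121 in demyelination controls 1 to 5. The 4AP libraries lay below all 4AP controls, and demyelination 1, 4 and 5 lay above all demyelination controls. Its 4AP effect was -0.97 ± 0.33 (adjusted p = 0.0402), its demyelination effect 1.05 ± 0.38 (unadjusted p = 0.01) and its difference -2.01 ± 0.50 (adjusted p = 0.0428), called in 4 of 20 fits. The differences were -2.59 ± 0.57 for ela2, -2.29 ± 0.55 for ela3l and -3.07 ± 0.67 for the astacin-like protease c6ast4, with adjusted p of 0.0304, 0.0388 and 0.0304. The trypsinogen genes prss1, prss59.1 and prss59.2 had -1.85, -1.93 and -2.16 and were not called, and reads of such near-identical copies may have been split between them. The summed level of the 9 pancreas markers was 6279 to 14663 CPM in 4AP, against 13302 to 42239 in the 4AP control, with 4AP control 5 the lowest of that group. It was 6426 to 21293 in demyelination, against 7838 to 9322 in the demyelination control. These proteases are not known as products of OPCs, and how their transcripts came into the sorted samples was not tested.

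**Figure D3:**
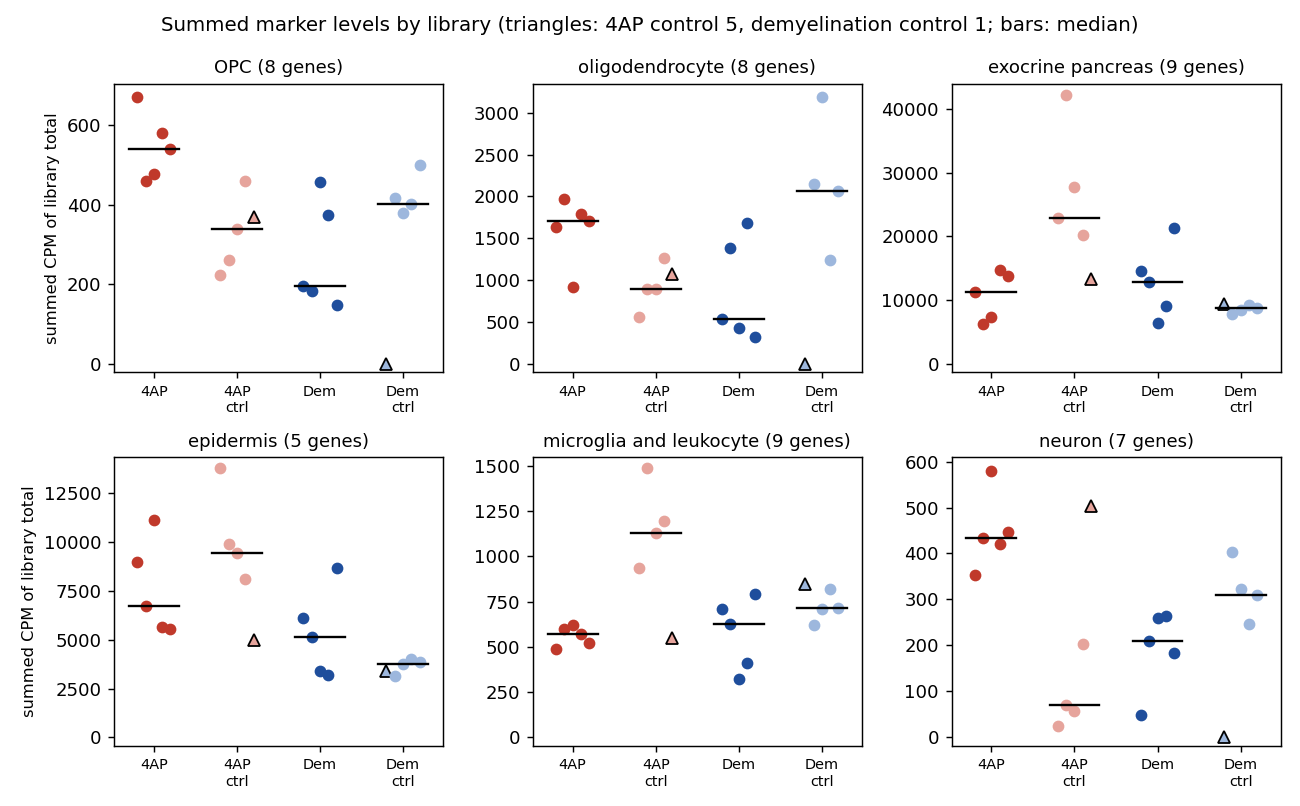
Summed level of marker genes of 6 cell types in each library, in CPM of the library total, with 4AP left of its control and demyelination left of its control. Triangles are 4AP control 5 and demyelination control 1, and bars are medians. Exocrine pancreas markers reach 42239 CPM in the 4AP control, and OPC markers stay at 670 CPM or below in every library.

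Epithelial genes had the same sign with smaller effects. Of 16 tested keratins 13 had a negative difference. A negative 4AP effect with a positive demyelination effect was seen in 10, against 827 of all 3981 genes tested. The medians were -0.35 for 4AP and 0.57 for demyelination. No keratin was called, and 7 had an unadjusted p under 0.05 with a negative sign. The sign of the 4AP median depended on the fit. It was 0.09 with library totals, and 0.31 with the prefix as a term, where 3 of 16 had that pattern. krtt1c19e, a keratin of epidermal basal cells, had -1.91 ± 0.55 (adjusted p = 0.0615). Of 18 tested ahnak, S100 and annexin genes, proteins that bind calcium or membranes, 14 had a negative difference, with medians of -0.67 and 0.32, and none was called. With the prefix as a term the 4AP median of these 18 was 0.02. Their median difference was then -0.23, against -0.99 without that term. The S100 genes icn2 and s100t had -2.06 ± 0.56 and -2.21, and anxa1c had -2.01, while ahnak itself had 0.07. Epidermis markers summed to 5563 to 11122 CPM in 4AP, against 4973 to 13801 in the 4AP control, and to 3199 to 8653 in demyelination, against 3152 to 4020 in the demyelination control.

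spint2 encodes an inhibitor of serine proteases at epithelial surfaces. spint2 had 34.9, 28.95, 28.7, 43.9 and 24.7 normalised CPM in the 4AP libraries, against 204, 266, 291, 270.5 and 26.6 in 4AP controls 1 to 5. Its values were 122, 209, 112, 118 and 191 in demyelination 1 to 5, against 0, 83.8, 103, 45.1 and 110.0 in demyelination controls 1 to 5. Every demyelination library lay above every demyelination control, and every 4AP library lay below 4AP controls 1 to 4, with 4AP control 5 inside the 4AP range. The 4AP effect was -2.66 ± 0.43 (adjusted p = 0.000187), the demyelination effect 0.85 ± 0.49 (unadjusted p = 0.0904) and the difference -3.51 ± 0.65 (adjusted p = 0.00735). The call held in 20 of 20 fits that left out 1 library, and the difference was -0.57 with the table-name prefix as a term.

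Nuclear genes of oxidative phosphorylation build the respiratory chain and the ATP synthase. Their median was below 0 in the 4AP effect and nearer 0 in the demyelination effect. Of 81 tested members of 109, 45 fell in the 4AP effect (11.5% of all genes tested), 0 rose, and 0 were called in the demyelination effect. The medians were -1.11 for the 4AP effect and -0.18 for the demyelination effect. With the prefix as a term they were -0.18 and -0.17. All 109 genes held 0.847 to 1.33% of reads in 4AP, against 1.92 to 2.38% in 4AP controls 1 to 4. In 4AP control 5 they held 1.04%, within the 4AP range. With library totals 23 of the 81 fell in the 4AP effect, against 232 of all 3981 genes tested. Their median was then -0.67, against 0.57 over all genes. With TMM the difference was negative in 68 of 81, with 31 at an unadjusted p under 0.05. Of the 81, 2 were called with a negative difference (1.31% of all genes). atp5po had 485, 345, 539, 387 and 311 normalised CPM in the 4AP libraries, against 1912, 1935, 1919, 1919.6 and 445 in 4AP controls 1 to 5. atp5po encodes a stalk subunit of the ATP synthase. In demyelination libraries 1 to 5 it had 365, 537, 319, 253 and 434, against 0, 414, 327, 349.6 and 412 in demyelination controls 1 to 5. 4AP controls 1 to 4 lay within 1912 to 1935, 4AP control 5 and all other libraries lay at 539 or below, and the demyelination libraries overlapped their controls. For atp5po the 4AP effect was -1.97 ± 0.38, the demyelination effect 0.12 ± 0.40 and the difference -2.09 ± 0.55 (adjusted p = 0.0428), which became -0.21 with the prefix as a term.

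cox6a2, a cytochrome c oxidase subunit known from heart and skeletal muscle in mammals, had 25.4, 14.5, 16.9, 15.5 and 11.8 normalised CPM in 4AP, against 286, 230.3, 243, 262 and 4.43 in 4AP controls 1 to 5. It had 0, 59.7, 0, 0 and 92.6 in demyelination, against 0, 48.5, 28.04, 22.6 and 38.5 in the demyelination control. 4AP control 5 was lower than every 4AP library. Its difference was -4.09 ± 1.04 (adjusted p = 0.0428) in 20 libraries, -1.997 without demyelination 5 and 1.24 with the prefix as a term, where the sign turned. Genes of mitochondrial import and the mitochondrial ribosome had medians of -1.02 and -0.14 in 29 tested members, of which 13 fell in the 4AP effect (11.5% of all genes). With the prefix as a term their 4AP median was -0.25, and their median difference was -0.04 against -0.81 without that term. The called member mrpl21, a protein of the large subunit, had 60.9, 29.8, 414, 33.7 and 19.3 normalised CPM in demyelination, against 0, 17.6, 0, 22.6 and 11 in the demyelination control. Its difference of -4.09 ± 0.99 (adjusted p = 0.042) rested on demyelination 3, and without that library it was -1.99. fdx1, the mitochondrial ferredoxin of steroid and iron-sulphur metabolism, had -3.34 ± 0.86 (adjusted p = 0.0428). Of the 13 genes of the mitochondrial genome 11 were tested, with medians of 0.06 for the 4AP effect and 0.38 for the demyelination effect, and 0 were called.

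Genes of redox defence stood lower with 4AP in part. Of 32 tested metallothionein, glutathione, peroxiredoxin, thioredoxin and ferritin genes 8 fell in the 4AP effect (11.5% of all genes), and the medians were -0.63 and 0.03. Their median difference was -0.39, and 0.13 when library totals replaced the normalisation factors. The called member gstp1, a glutathione transferase, had 250.5, 354, 468, 420.0 and 299 normalised CPM in 4AP, against 1189, 1669, 1257, 1239 and 480.1 in the 4AP control. It had 609, 686, 191, 405 and 614 in demyelination, against 196, 370.4, 402, 564 and 368 in the demyelination control. All 4AP libraries lay below all 4AP controls, and the demyelination groups overlapped. The difference was -1.99 ± 0.52 (adjusted p = 0.0428), called in 3 of 20 fits that left out 1 library. It was -0.71 with the prefix as a term. aclya, ATP citrate lyase that supplies acetyl-CoA for lipid synthesis, had -2.79 ± 0.73 (adjusted p = 0.0428) and fell in 4AP in a list of lipid synthesis whose other 7 tested members all had a positive difference. cfl1l, a cofilin that severs actin, had -2.13 ± 0.55 (adjusted p = 0.0428), and tnnt2d, a troponin T of striated muscle, -3.14 ± 0.75 (adjusted p = 0.0388).

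Some of the called genes were read almost wholly from introns. More than 50% of reads were intronic in 21 of the 52 genes with a negative difference (40.4%), a share near that of all genes tested, 1473 of 3981 (37.0%). ERBB4, annotated as a receptor of neuregulin, had 764, 1186, 782, 1037 and 1214 normalised CPM in 4AP, against 10780.3, 13836, 11029.9, 9956 and 767 in 4AP controls 1 to 5. It had 7912, 8533, 17733, 6759.5 and 7924 in demyelination, against 3717, 16489.5, 11899.7, 14932 and 10336 in the demyelination control. The 4AP libraries and 4AP control 5 lay between 764 and 1214, and the other 14 libraries at 3717 or above. More than 99.9% of its reads were intronic in every group, its difference was -2.97 ± 0.69 (adjusted p = 0.038), and the difference turned to 0.63 with the prefix as a term. Over the 7 tested neuregulin and ErbB genes the median difference was -0.38.

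rtkn2b had 479, 715, 500.0, 809.6 and 774 normalised CPM in 4AP, against 11775, 12920.0, 11509.7, 10514 and 530.3 in 4AP controls 1 to 5. In both demyelination groups it stayed at 89.5 or below. The same arrangement, with 4AP controls 1 to 4 high and 4AP control 5 at the 4AP level, was seen for further genes with more than 94% of reads in introns, cdh23_1 (a cadherin), gcnt3 (a glycosyltransferase of mucins), rasl10a (a Ras-like protein) and ctsa (cathepsin A). Their differences were -3.99 ± 0.95 for rtkn2b, -5.35 ± 0.92 for cdh23_1, -3.86 ± 0.92 for gcnt3, -3.86 ± 0.87 for rasl10a and -2.30 ± 0.62 for ctsa. With the prefix as a term these became 0.17, -0.51, 0.64, -0.42 and 0.40 in the same order. Intron reads made up 24.3 to 29.8% of all reads in 4AP, against 34.3 to 38.5% in 4AP controls 1 to 4 and 20.5% in 4AP control 5. Genes with a read numbered 17096 to 22644 in 4AP, against 9750 to 11048 in 4AP controls 1 to 4 and 20281 in 4AP control 5. The part of these library differences in the gene values was not tested. The strand of counting is not given in the sources used here, so intron reads of a gene and of a transcript overlapping it cannot be told apart.

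Egr, Ier and related immediate early genes had a median below 0 in the 4AP effect and closer to 0 in the demyelination effect. Of 11 tested members 6 fell in the 4AP effect (11.5% of all genes tested), the medians were -1.19 and -0.12, and none was called in the difference. With the prefix as a term the 4AP median was -0.34, and the median difference was -0.24 against -1.19 without that term. ier2a had 333, 179, 258, 282 and 366 normalised CPM in the 4AP libraries, against 1116, 1239, 1230.0, 1012 and 418 in 4AP controls 1 to 5. ier2a is an early response gene induced by growth factors. Demyelination libraries 1 to 5 had 183, 209, 159, 253 and 218, against 0, 317, 215, 147 and 258 in demyelination controls 1 to 5. The lowest of 4AP controls 1 to 4 was 1012 and the highest 4AP library 366, with 4AP control 5 at 418, and the demyelination groups overlapped. Its difference was -1.69 ± 0.52 (adjusted p = 0.0825). The 9 AP-1 genes had medians below 0 in both effects, -0.72 and -0.49, and 0 calls. dusp5, a phosphatase that inactivates ERK, had a 4AP effect of -3.01 ± 0.47 and a demyelination effect of -0.93 ± 0.60, a difference of -2.08 ± 0.75 (adjusted p = 0.137). With the prefix as a term the difference of dusp5 was -0.36.

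Notch, Wnt, axon guidance, synaptic, glycolytic, ribosomal and heat shock genes had no called difference. Notch genes had medians of 0.35 and -0.46 over 16 tested members, 14 of them with a positive difference and 0 called, and the median difference of 0.75 turned to -0.23 with the prefix as a term. The Hes and Her targets her15.1 and her4.3 had 2.14 and 2.07, hes2.2 had -2.78 ± 1.01, and the receptors notch1a and notch1b had 0.80 and -0.11. Wnt pathway genes had medians of 0.84 and 0.26 and 0 of 17 called. Axon guidance genes had 0.69 and 0.33 and 0 of 39 called, with plxna3, a semaphorin receptor, at 1.67 ± 0.51 (adjusted p = 0.0777). Synaptic vesicle genes had 0.47 and -0.30 and 0 of 15 called. Of 5 tested Kruppel-like factors 2 rose (6.08% of all genes) and 1 fell (11.5%) in the 4AP effect, and 0 were called in the difference. Genes of glycolysis and lactate transport had medians of -0.65 and -0.11, with 3 of 13 lower in the 4AP effect (11.5% of all genes), 0 with library totals, and 0 called in the difference. Genes of the cytosolic ribosome had -0.23 and -0.29 and 0 of 78 called. Heat shock proteins and chaperones had -0.19 and -0.10 and 0 of 37 called. PDGF and FGF signalling had 0.62 and 0.55 with fgfbp2b as the called member of 11.

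**Figure D4:**
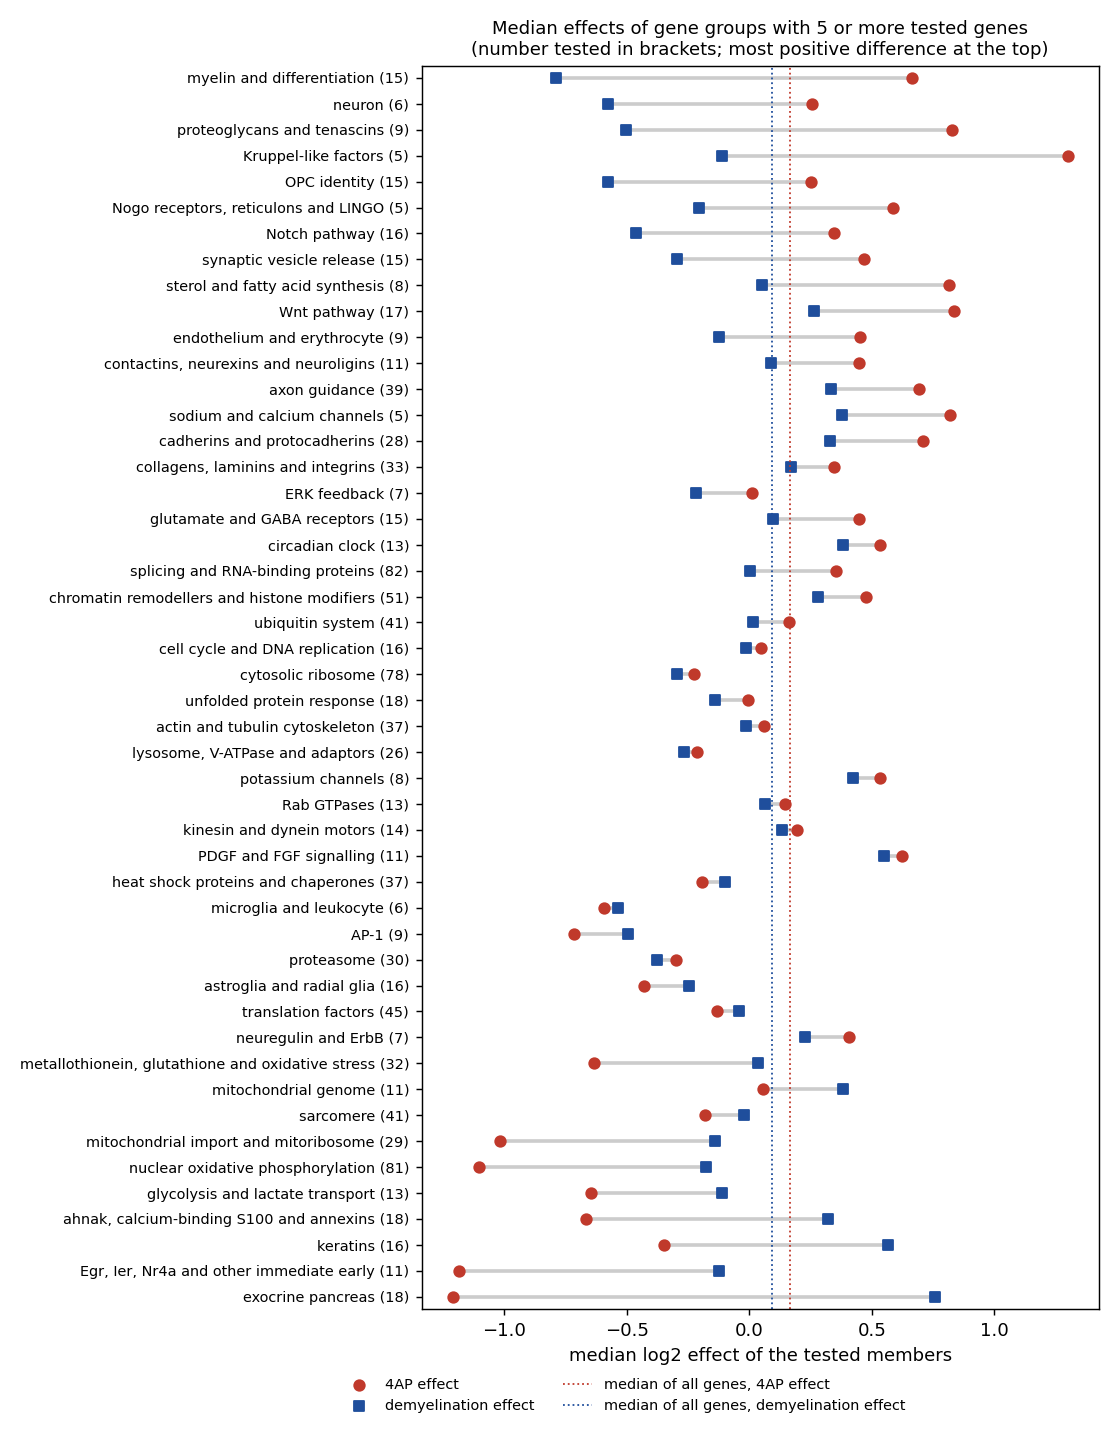
Median log2 4AP effect (circles) and median log2 demyelination effect (squares) of gene groups with 5 or more tested genes, ordered by the median difference, with dotted lines at the medians of all genes. The myelin group has the 4AP median right of 0 and the demyelination median left of 0, and the exocrine pancreas group has them the other way round.

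Demyelination control 1 changed the number of calls more than their size. Without it 5014 genes were tested and 37 called (0.738%), 12 with a positive (0.239%) and 25 with a negative difference (0.499%). Of the 37, 30 were among the 66 (81.1% of the shorter and 45.5% of the longer list), and all 66 kept their sign, with differences 0.90 to 1.09 times those in 20 libraries. Effects of opposite sign were seen in 33 of the 37 (0.658% of genes tested). qki2 had 2.88 (adjusted p = 0.0125), gpm6ab 3.29 (0.0448), ela2l -2.93 (0.0125) and spint2 -3.38 (0.0125). Several genes moved just past the threshold: tnr had 2.60 with an adjusted p of 0.0504, cpa4 -1.86 with 0.0504, atp5po -1.89 with 0.0504 and hmgn3 2.45 with 0.0515. rtkn2b (0.0634), cox6a2 (0.0677), mrpl21 (0.0579) and fdx1 (0.0579) were also no longer called. The pancreas group had 5 calls and a median difference of -1.87, and the medians of the myelin and OPC groups were 1.68 and 1.36. The median difference of all genes was 0.16 in that fit.

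Of the 37 genes called without demyelination control 1, 7 were not among the 66, and 6 of these had not passed the filter in 20 libraries. dscamb, a cell adhesion molecule of neurite avoidance, had 209, 198, 194, 395 and 447 normalised CPM in 4AP, against 43.7, 97.3, 47.3, 105 and 239 in the 4AP control. It had 152, 119, 255, 354 and 129.8 in demyelination, against 0, 428, 383, 406 and 374 in the demyelination control. Its difference was 2.42 (adjusted p = 0.0491), against 2.26 ± 0.63 (adjusted p = 0.0548) in 20 libraries. Negative differences were called for ckmt1, the mitochondrial creatine kinase (adjusted p = 0.017), apooa, a protein of the inner mitochondrial membrane (0.0312), cerkl, a ceramide kinase-like protein (0.0288), and cuzd1.2 (0.0448). They rested on few reads in the demyelination groups, where a fitted fold depends on the prior count, so none is given. ckmt1 had 6, 29, 17, 52 and 23 reads in 4AP 1 to 5, against 51, 80, 38, 24 and 32 in the 4AP control, and 0, 1, 2, 2 and 64 in demyelination, against 0, 1, 0, 2 and 2 in the demyelination control. apooa had 2 to 17 reads in 4AP, against 9 to 18 in the 4AP control, and 1, 0, 0, 2 and 55 in demyelination, against 0 or 1 in the demyelination control. cerkl had 10 to 35 reads in 4AP, against 15 to 69 in the 4AP control, and 1, 1, 2, 3 and 134 in demyelination, against 0, 3, 4, 2 and 7 in the demyelination control. cuzd1.2 had 0 to 2 reads in 4AP, against 14, 19, 15, 6 and 0 in 4AP controls 1 to 5, and 1, 0, 0, 1 and 47 in demyelination, against 0, 2, 5, 1 and 1 in the demyelination control. Demyelination 5, the deepest library of its group, held most of the demyelination reads of each. pcdh1gc5, a clustered protocadherin, was also called, with 9, 61, 6, 83 and 46 reads in 4AP 1 to 5, 0 reads in all 5 4AP controls, 7 in demyelination 5 and 6 in demyelination control 3. With 3 reads as the limit of detection, 0 reads allowed up to 4.43 to 26.2 normalised CPM in the 4AP controls, and no fold is given.

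4AP control 5 and the table-name prefix changed the calls far more. Without 4AP control 5, 738 of 4018 genes were called (18.4%), 383 with a positive (9.53%) and 355 with a negative difference (8.84%), and 65 of the 66 genes were tested and all 65 called. The OPC group then had 3 positive calls and 1 negative among 15, the myelin group 5 positive, the Notch group 7 positive and 1 negative, the pancreas group 13 negative and oxidative phosphorylation 28 negative and 2 positive. sox10 had 4.27, klf7b, a Kruppel-like factor of neurons, 4.14 and elavl3, a neuronal RNA-binding protein, 3.39 in that fit. With the prefix as a term, which leaves 4AP control 5 alone to stand for the 4AP control beside the 4AP libraries, 0 genes were called and 98 (2.46%) had an unadjusted p under 0.05. Of the 66 genes 56 kept their sign. The 14 with a positive difference all did, with a median of 1.75, while the 52 with a negative difference had a median of -0.59 and 42 kept theirs. In the named genes among the 14, however, the 4AP effect itself was smaller in that fit. It went from 1.80 to 0.16 in gpm6ab, 1.26 to 0.31 in qki2 and 1.19 to 0.10 in tmem178b. In smarcc1a it turned from 0.75 to -0.41. The effect changed least in lyz, from 0.59 to 0.50, and stayed largest in tnr, at 1.05 against 1.76. The pancreas group had a median of -1.20 there with all 18 negative, the myelin group 1.58, the OPC group 0.68 and oxidative phosphorylation -0.03. Leaving out 4AP control 5 and adding the prefix thus pull the oxidative phosphorylation group in opposite directions, and prefix and treatment cannot be told apart in the other 4 4AP controls.

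**Figure D5:**
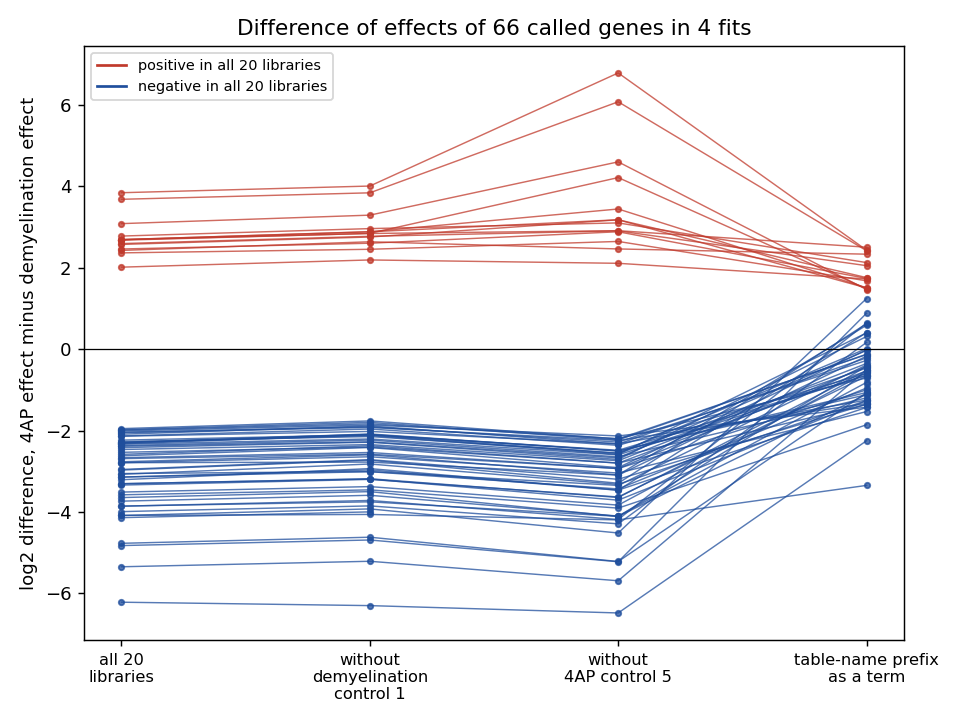
Log2 difference of effects of the 66 called genes in 4 fits, each line a gene, red where the difference was positive in 20 libraries and blue where it was negative. Leaving out demyelination control 1 keeps all 66 signs. Once the prefix enters as a term, red lines stay above 0 and most blue lines lie nearer 0.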

How the data were processed

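Gene counts of 20 libraries were read from 1 deposited table per library, which the authors made from QIAseq UPX 3' libraries of 1 or 4 ng RNA purified with RNeasy micro columns, per the labels' protocols. The column of total gene reads, raw counts per gene per the file headers, was used. The submitters' processing notes list build GRCz11. The aligner, counter, strand setting and use of molecular identifiers are not given in the sources used here. Which library had which RNA input is also not given.

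Of 31743 genes in the tables, those passing edgeR's filterByExpr (minimum count 10, minimum total 15) were scaled by TMM and fitted with robust edgeR 4.0.16 quasi-likelihood in R 4.3.3, with 1 coefficient per group over all 20 libraries. P-values were Benjamini-Hochberg adjusted over all genes tested, and called means an adjusted p under 0.05. Effects are log2 fold changes, and SE is the effect divided by the root of the F statistic. Normalised CPM divides reads by the TMM-scaled library size, and marker sums use the library total.

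Alternatives were DESeq2 1.42.0 size factors and Wald test, library totals, other filters and thresholds, limma 3.58.1 voom with sample weights, exon or unique reads, the table-name prefix or depth as a term, the replicate block and leaving out each library. Leaving out demyelination control 1 and 4AP control 5 together was chosen after seeing the data. No 2 libraries of a group were identical. Of the pairs within groups, only demyelination controls 1 and 2 could not be told apart by a chi-square test of counts (p = 0.263 over 13 genes), at the depth of control 1, and both were kept.

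Members and lists were chosen with earlier results of these data known. Named genes had a symbol. They were the 8 largest called differences in each direction and the 6 called genes with the largest opposite effects, both among genes averaging 20 reads or more, and, with no such minimum, up to 4 called genes per list or else its lowest p, 6 lineage markers, and for each direction the 4 lowest p that were called only without demyelination control 1. Further members of a list were chosen as examples after their values were seen. On simulated counts for the difference of effects over 3515 genes, the test called 2 of 93 genes given a log2 difference of 2. It called 0 of 87 given a log2 difference of 1, and made 0 false calls. These counts describe the simulated data only. How many calls in the deposited libraries are false, given their dependence on the table-name prefix and on single libraries, was not tested. Some genes are not reported here.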

Additional observations from a re-analysis of the deposited data

Results flagged for a closer look

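Single libraries stood far from the other 4 of their group in 23 of the measures examined, by a gap that was large against the range of the group. The limit used flags about 1 in 20 groups of normally distributed values, and 140 groups of 5 were examined. These measures share libraries and need not be so distributed, so the number that chance would flag was not tested. 4AP control 5 had 897620 reads, 20281 genes with a read and 20.5% intron reads, and its endothelium and erythrocyte markers summed to 2666 CPM. In the same library normalised CPM were 445 for atp5po, 4.43 for cox6a2, 352 for gpm6ab, 418 for ier2a, 530.3 for rtkn2b and 258 for tmem178b. Demyelination control 1 had 592 genes with a read, 0 CPM of OPC markers, 0 CPM of radial glia markers, 0 for atp5po and 391 for ela2l. Demyelination 5 had 3528970 reads and 25333 genes. Radial glia markers summed to 1832 CPM in 4AP 3 and 4119.7 CPM in demyelination 3. Demyelination 3 also had 17733 normalised CPM of ERBB4 and 414 of mrpl21, and demyelination 4 had 50.6 of cldn19 and 371 of tmem178b.

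The 4AP effect and the demyelination effect differed by edgeR's quasi-likelihood test of the difference itself in 31 named genes. Log2 differences were positive for gpm6ab (3.08), fgfbp2b (2.78), qki2 (2.69), smarcc1a (2.69), hoxa11b (2.69), ubtd2 (2.68), cldn19 (2.59), tmem178b (2.57), tnr (2.46), lyz (2.43) and hmgn3 (2.36). They were negative for the protease and protease inhibitor genes spint2 (-3.51), ela2l (-3.21), c6ast4 (-3.07), ela2 (-2.59), ela3l (-2.29) and cpa4 (-2.01). They were negative for the mitochondrial genes mrpl21 (-4.09), cox6a2 (-4.09), fdx1 (-3.34) and atp5po (-2.09). They were also negative for cdh23_1 (-5.35), rtkn2b (-3.99), rasl10a (-3.86), gcnt3 (-3.86), tnnt2d (-3.14), ERBB4 (-2.97), aclya (-2.79), ctsa (-2.30), cfl1l (-2.13) and gstp1 (-1.99).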

How the results depend on the processing

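Counts of called genes were 66 for the difference of effects (60 with opposite signs), 698 for the 4AP effect and 0 for the demyelination effect. Without a filter the difference called 114 genes (107 opposite) and the demyelination effect 7. The DESeq2 Wald test called 122 (118 opposite). Voom called 643 (523 opposite), 1710 for the 4AP effect and 7 for the demyelination effect. Exon reads gave 39 (39 opposite) and 253 for the 4AP effect. An adjusted p under 0.01 gave 3 (3 opposite) and 215 for the 4AP effect, and one under 0.1 gave 161 (143 opposite) and 1127. Library totals in place of TMM gave 1077 for the 4AP effect and 70 for the difference, 60 of them positive against 14 of 66, with a median difference of all genes of 0.52 against 0.03. DESeq2 size factors gave 59, 4 of them positive. With the prefix as a term the difference called 0 (0 opposite), the 4AP effect 0 and the demyelination effect 1. Depth as a term gave 1 for the demyelination effect. Without both demyelination control 1 and 4AP control 5 the counts were 824 (609 opposite), 1893 for the 4AP effect and 1 for the demyelination effect. The replicate block left 8 (7 opposite). Correlations of same-numbered libraries were -0.040 to 0.115. In the 4AP experiment 1 of 5 numbers matched best with their own, and in the demyelination experiment 0 of 5. These values show no pairing by number but cannot exclude it, since demyelination control 1 is shallow and weak pairing would leave low correlations. Leaving out 1 library gave 3 (without demyelination control 2) to 738 (without 4AP control 5) for the difference, 3 to 552 for opposite signs, 384 to 1713 for the 4AP effect and 0 to 1 for the demyelination effect. Among named genes 9 values reversed. The difference of eif4h was 0.46 with exon reads, that of cacna1ia ran between -4.28 and 0.54 (without demyelination 5) over the fits leaving out 1 library, and with the prefix as a term cox6a2 had 1.24, ctsa 0.40, ERBB4 0.63, gcnt3 0.64, hbae1.1 -0.67, nedd8l 1.35 and rtkn2b 0.17. The cause of these changes was not tested. Depth limits the demyelination groups most, since libraries other than demyelination 5 held at most 282966 reads there.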
